A study of Bos taurus with 14 samples.

Results

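Transcripts of the enzymes of glycolysis and gluconeogenesis were followed in the liver and the circulating neutrophils of Holstein cattle given β-cryptoxanthin, a carotenoid that animals can convert to vitamin A. A list of 9 genes was looked up on a custom bovine array: GAPDH, ENO1, PGK1, LDHA, LDHB, ALDOA, PCK1, FBP1 and PFKL. A probe belonged to the set when the array's gene name, or the gene symbol that its description gives, was one of these and its spots were well above background. The search gave 7 of the 9 genes, measured by 8 probe sequences in 107 of the 15208 spots that were not controls (15011 probes in all). No probe was found by this rule for ALDOA or FBP1, which were not analysed here. The PFKL probe is named only by its stated similarity to the human gene.

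The liver samples came from animals 58, 61 and 66 on day 7 and, from the same animals, on day 0. The neutrophil samples came from 4 other cattle, animals 25, 26, 32 and 34, also on day 7 and day 0, which gave 14 single-colour arrays in 4 groups. All animals were heifers or steers and all received β-cryptoxanthin by mouth at 0.2 mg per kg body weight on day 0, including those whose day 0 samples serve as the baseline. No untreated animals were analysed here, so what the carotenoid did and what else changed over the 7 days cannot be told apart. The sources used here do not say how the liver and the neutrophils were obtained.

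Glycolysis splits glucose to pyruvate in the cytosol and yields ATP without oxygen, and lactate dehydrogenase then converts pyruvate to lactate. Gluconeogenesis runs the reversible steps backwards, with its own enzymes at the irreversible ones, and in ruminants, which absorb little glucose from the gut, the liver depends on it. Neutrophils have few active mitochondria and draw most of their ATP from glycolysis.

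GAPDH, the enzyme that oxidises glyceraldehyde phosphate and a common reference gene, was present as a pair of different 60-base sequences. One was printed in 100 spots spread from the first to the last row of the array, the other in a single spot in row 1. The liver result turns on the difference between them, so both are shown 5′ to 3′ as the array files give them, in lower case throughout.

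GAPDH, 100 spots: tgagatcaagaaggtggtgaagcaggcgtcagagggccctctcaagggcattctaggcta

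GAPDH, row 1 probe: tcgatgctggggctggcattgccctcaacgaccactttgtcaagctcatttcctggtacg

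Each holds 33 G or C bases (55%), and the longest run they share on either strand is 6 bases, so they read separate stretches of the transcript. The files name no genome build and the probes were not placed on the genome. The other members had 1 spot each: LDHA in row 38, ENO1 in row 47, PCK1 in row 53, PGK1 in row 119, PFKL in row 132 and LDHB in row 144. Another probe, in row 124, carries only older symbols of GAPDH and was kept apart.

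All 8 sequences were well above background on all 14 arrays. The liver arrays had 62.7 to 75.1% of their spots well above background on day 7, against 74.7 to 76.7% on day 0. For the neutrophil arrays these shares were 57.1 to 69.0% on day 7, against 63.5 to 71.6% on day 0. Slide 1 held the liver and slide 2 the neutrophil arrays, with day 7 in the second and day 0 in the first row of arrays on each. Day and position on the slide therefore cannot be told apart, nor can tissue and slide. The day 7 neutrophil array of animal 34 stood apart. Its median processed signal was 48.2, compared with 100.2 to 162.9 on the other day 7 neutrophil arrays, and it had correlations of 0.924 to 0.945 with the other neutrophil arrays. Hepatocyte markers were present in liver (10 of 10 on every array), whereas 7 of them on day 7 and 5 on day 0 cleared background on no neutrophil array. Neutrophil markers (7 of 12 listed genes on the array) had a summed level of 650 to 1369 times the 75th-percentile signal in day 7 neutrophils and 813 to 977 times in day 0 neutrophils, against 2.87 to 3.44 times in day 7 livers and 4.19 to 10.7 times in day 0 livers.

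Levels are given as log2 of the processed signal relative to the 75th percentile of the same array, so that 0 is the level of a fairly bright probe and each unit is a doubling. They are compared within a probe only, because brightness differs between probes for reasons of sequence. The first comparison asked how the members differed between the tissues before the 7 days. Liver carried far more PCK1 and more PFKL transcript than neutrophils, whereas neutrophils carried more PGK1, LDHA and GAPDH. ENO1 and LDHB did not pass the test. In bulk samples, fewer cells of a type and less RNA per cell cannot be told apart.

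PCK1, the cytosolic phosphoenolpyruvate carboxykinase that commits carbon to gluconeogenesis, had 5.86, 5.05 and 5.73 in the day 0 livers of animals 58, 61 and 66, against -2.34, 0.18, -0.73 and -0.19 in the day 0 neutrophils of animals 25, 26, 32 and 34. The lowest liver value exceeded the highest neutrophil value by a wide margin, and the neutrophil values themselves were the most spread of any member on day 0. The difference was 6.32 ± 0.56 (SE, liver minus neutrophils, 79.6-fold, adjusted p = 1.12e-05, limma). PFKL, the liver-type subunit of phosphofructokinase at the committed step of glycolysis, had 1.37, 1.90 and 2.04 in liver and -0.26, -0.10, -0.10 and -0.42 in neutrophils, a difference of 1.99 ± 0.20 (3.97-fold, adjusted p = 2.58e-05).

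PGK1, the kinase that makes the first ATP of the pathway, showed the opposite order, with 1.65, 1.70 and 1.75 in liver and 4.04, 4.09, 3.97 and 4.40 in neutrophils (difference -2.43 ± 0.16, adjusted p = 1.75e-06). LDHA, the lactate dehydrogenase subunit of glycolytic tissues, had 2.10, 2.03 and 1.94 in liver and 3.92, 4.03, 4.09 and 4.21 in neutrophils (-2.04 ± 0.15, adjusted p = 3.07e-06). For both genes the groups lay far apart with little spread inside either.

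The 100-spot GAPDH sequence had 2.0, 1.98 and 2.30 in liver and 2.91, 3.25, 3.17 and 3.14 in neutrophils, a difference of -1.02 ± 0.16 (adjusted p = 0.000425). Over its 57 spots in the middle rows alone (all but the first 40 and the last 40 rows) the difference was -0.89 (adjusted p = 0.00107), and with each animal's mean over both days it was -0.57 and did not pass (adjusted p = 0.0713). The row 1 GAPDH probe differed by -1.88 ± 0.16 (adjusted p = 8.15e-06), but with the trend along the spot rows of each array removed, as described below, by -0.21 (adjusted p = 0.274). Both sequences were lower in liver under every setting tried, while the difference for the row 1 probe was smaller with the row trend removed. That probe has a single spot, and the part of position in its difference was not tested.

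ENO1, the widespread enolase, lay at 0.87, 0.76 and 1.13 in liver and at 1.02, 0.87, 0.72 and 0.91 in neutrophils, so the groups overlapped and the difference was 0.04 (95% interval -0.34 to 0.41, adjusted p = 0.843). LDHB, the lactate dehydrogenase subunit of oxidative tissues, had 4.66, 4.54 and 4.98 in liver and 4.74, 4.86, 4.75 and 5.16 in neutrophils (-0.15, interval -0.57 to 0.27, adjusted p = 0.450), and its sign turned with quantile normalization (0.28). Counted by the brightest probe of each gene, 2 of 7 members were higher and 3 lower in liver. Tissue differences were the rule on these arrays: 83.1% of 11494 probes tested passed, 39.7% higher and 43.5% lower in liver, so the count of members is near that of all probes. Groups that do not overlap were found for 6 of the 8 member probes and for 82.4% of all probes.

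**Figure D1:**
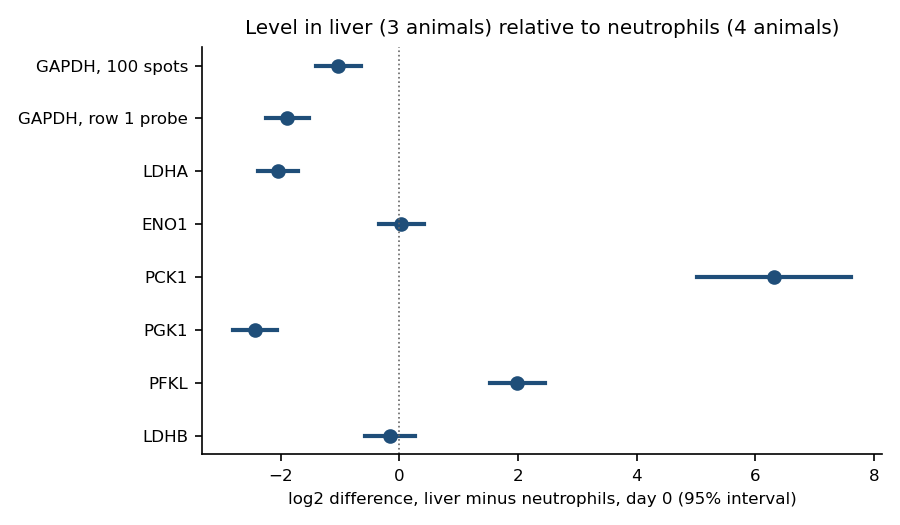
Fitted log2 difference of each member probe between liver (3 animals) and neutrophils (4 animals) on day 0, with its 95% interval; values right of the dotted line are higher in liver. PCK1 (6.32) and PFKL (1.99) lie to the right, PGK1, LDHA and both GAPDH probes to the left, and ENO1 and LDHB across 0.

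The rest of the pathway was read from a list of 68 further genes, of which 45 were on the array. In 41 of these tested between the tissues, 25 were higher and 13 lower in liver, where 39.7% of all probes were higher and 43.5% lower. All 10 gluconeogenic genes tested were higher in liver, with a median difference of 4.18, as PCK1 was. They included PC, the mitochondrial pyruvate carboxylase (5.83 ± 0.17, adjusted p = 2.66e-08), and G6PC1, the catalytic subunit of the phosphatase that releases free glucose (5.64 ± 0.25, adjusted p = 1.84e-07), whose signal cleared background on 3 of the 4 neutrophil arrays. All 7 genes of pyruvate and lactate handling tested were also higher in liver (median 1.66), among them PDK2, an inhibitory kinase of pyruvate dehydrogenase (3.56 ± 0.17, adjusted p = 2.99e-07). SLC16A7, PDHA1 and LDHAL6B, described below, were tested through liver alone, as they cleared background on no day 0 neutrophil array. G6PC1 was tested through liver alone as well. A gene tested through 1 tissue in this way could hardly come out lower there, so its direction is not a finding.

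The other gluconeogenic genes that passed span the pathway. PCK2, the mitochondrial form of phosphoenolpyruvate carboxykinase, differed by 5.58, and SLC37A4, the carrier that brings glucose phosphate into the endoplasmic reticulum, by 4.56. FBP2, the muscle fructose bisphosphatase, differed by 3.53 and G6PC3, a widespread glucose phosphatase subunit, by 0.99. The malate and aspartate steps that carry carbon out of the mitochondrion were higher in liver in both compartments, with 4.70 for GOT2 and 2.70 for MDH2, the mitochondrial aspartate transaminase and malate dehydrogenase, and 3.79 for GOT1 and 2.97 for MDH1, the cytosolic ones.

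Of the genes of pyruvate and lactate handling, MPC2, a subunit of the mitochondrial pyruvate carrier, differed by 3.41, SLC16A1, a lactate carrier, by 1.66 and PDHX, a component of the pyruvate dehydrogenase complex, by 1.38. LDHAL6B and PDHA1, a catalytic subunit of that complex, cleared background on no day 0 neutrophil array. LDHAL6B was at least 1.21-fold higher in liver, and for PDHA1 no fold can be given. Over all the pathway genes that passed between the tissues, the adjusted p was at most 0.0106, that of LDHAL6B.

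The other glycolytic enzymes were divided, with 3 higher and 5 lower in liver of 9 tested, where 39.7% of all probes were higher and 43.5% lower. PKLR, the pyruvate kinase of liver and red cells, was higher in liver (6.68 ± 0.16, adjusted p = 1.39e-08), and ALDOC, an aldolase isoform, was lower (-3.52 ± 0.22, adjusted p = 1.43e-06). PFKM, the muscle-type phosphofructokinase subunit, was higher by 2.91 and TPI1, the triose phosphate isomerase, by 1.22. Lower in liver were PGAM2 (-2.23, above background on 2 of the 3 liver arrays), PGAM1 (-1.97), ENO3 (-1.29) and GPI (-1.01), which are the muscle and the widespread phosphoglycerate mutase, the muscle enolase and the glucose phosphate isomerase. PGAM2 was tested through neutrophils alone, so its direction is not a finding.

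Of the glucose carriers, SLC2A1, the basal one, was well above background on every day 0 array and did not pass (0.11 ± 0.27, adjusted p = 0.723, limma). SLC2A2, SLC2A3 and SLC2A4 were each tested through 1 tissue alone, as were PFKFB1 and SLC16A7, so their direction is not a finding. SLC2A2, the hepatic carrier GLUT2, cleared background on no day 0 neutrophil array and was at least 76.3-fold higher in liver (adjusted p = 6.76e-08), whereas SLC2A3, the high-affinity carrier GLUT3, cleared background on no day 0 liver array and was at least 382-fold lower in liver (adjusted p = 3.32e-08). Each such fold sets the mean of the brighter tissue against the lowest well-measured signal of the dimmer arrays or the probe's own signal, whichever was higher, and is a lower bound. SLC2A4, the insulin-responsive carrier GLUT4, was above background on none of the neutrophil arrays and at least 6.71-fold higher in liver, and HK1, a hexokinase, was lower in liver (-1.55). By the same rule PFKFB1, the liver isoform of the enzyme that makes and breaks down the allosteric activator of phosphofructokinase, was at least 413-fold higher in liver (adjusted p = 5.02e-08), and SLC16A7, a monocarboxylate carrier, at least 30.5-fold higher (adjusted p = 1.54e-07). PFKFB3, the inducible isoform of the same enzyme family, was lower in liver (-2.82 ± 0.43, adjusted p = 0.000311). Of 7 transcriptional regulators, 2 were higher and 5 lower in liver, against 39.7% and 43.5% of all probes. The 2 higher ones, PPARGC1A and HNF4A, were tested through liver alone, so their direction is not a finding. For PPARGC1A, the coactivator of the gluconeogenic programme, liver exceeded neutrophils at least 16.3-fold (adjusted p = 2.14e-07), and the fitted difference of CREB1, a cAMP-responsive factor, was -5.45 ± 0.17 (adjusted p = 3.62e-08). CEBPB, a leucine zipper factor, was lower in liver by a log2 difference of -4.83, CRTC2, a coactivator of CREB1, by -2.48, NR3C1, the glucocorticoid receptor, by -2.32 and HIF1A, the oxygen-regulated factor that induces glycolytic genes, by -1.75. HNF4A, a hepatocyte nuclear factor, was higher by 1.52 and cleared background on 3 of the 4 neutrophil arrays.

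The second comparison asked how the members changed in liver between day 0 and day 7. Outside row 1 no member passed the test, and the single call was the GAPDH probe in row 1. Of 7 genes counted by their brightest probe, 1 passed (higher), and with the 100-spot GAPDH sequence in its place 0 of 7 passed by limma (0 at an unadjusted p under 0.05 too). Over all 10933 probes tested in liver, 3.98% passed, 2.67% higher and 1.31% lower. The median change was 0.04 over the members and -0.04 over all probes.

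PCK1 had 6.04, 5.31 and 5.52 in the day 7 livers of animals 58, 61 and 66, against 5.86, 5.05 and 5.73 on day 0. It was higher on day 7 in animals 58 and 61 and lower in animal 66, and the change of 0.08 ± 0.13 (SE) had a 95% interval of -0.28 to 0.43 (adjusted p = 0.822). PFKL had 1.62, 1.69 and 2.02 on day 7 and 1.37, 1.90 and 2.04 on day 0, a change of 0.01 with an interval of -0.33 to 0.35 (adjusted p = 0.977).

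PGK1 had 1.76, 1.87 and 2.0 on day 7 and 1.65, 1.70 and 1.75 on day 0. It was higher on day 7 in each animal, and the day groups narrowly did not overlap, but the change of 0.18 ± 0.10 did not pass (interval -0.08 to 0.44, adjusted p = 0.439). Day groups that do not overlap were found for 2 of the 8 member probes (PGK1 and the row 1 GAPDH probe) and for 15.2% of all probes tested in liver. A change of 1 sign in every animal was found for 3 of the 8 (PGK1 and both GAPDH sequences) and for 40.4% of all probes.

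ENO1 had 0.99, 1.08 and 0.80 on day 7 and 0.87, 0.76 and 1.13 on day 0 (change 0.04, interval -0.38 to 0.45, adjusted p = 0.926). LDHA had 2.36, 2.03 and 1.68 on day 7 and 2.10, 2.03 and 1.94 on day 0 (0.00, interval -0.36 to 0.36, adjusted p = 0.998). LDHB had 4.70, 4.68 and 4.83 on day 7 and 4.66, 4.54 and 4.98 on day 0 (0.01, interval -0.28 to 0.30, adjusted p = 0.98). Animal 66 was lower on day 7 for each of the 3, as it was for PCK1 (-0.21) and PFKL (-0.02).

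For GAPDH the 2 sequences gave different values. The 100-spot sequence had 2.10, 2.26 and 2.31 on day 7 and 2.0, 1.98 and 2.30 on day 0, a change of 0.13 ± 0.11 (interval -0.15 to 0.42, adjusted p = 0.607). The row 1 probe had 5.06, 4.90 and 4.84 on day 7 and 3.88, 3.68 and 3.86 on day 0, and rose by 1.13 ± 0.11 (2.18-fold, adjusted p = 0.0174). The day groups of the row 1 probe lay far apart, and those of the 100-spot sequence overlapped. Left out in turn, each of the 3 animals ended the call of the row 1 probe (change 1.08 to 1.20, adjusted p = 0.0617 to 0.151).

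**Figure D2:**
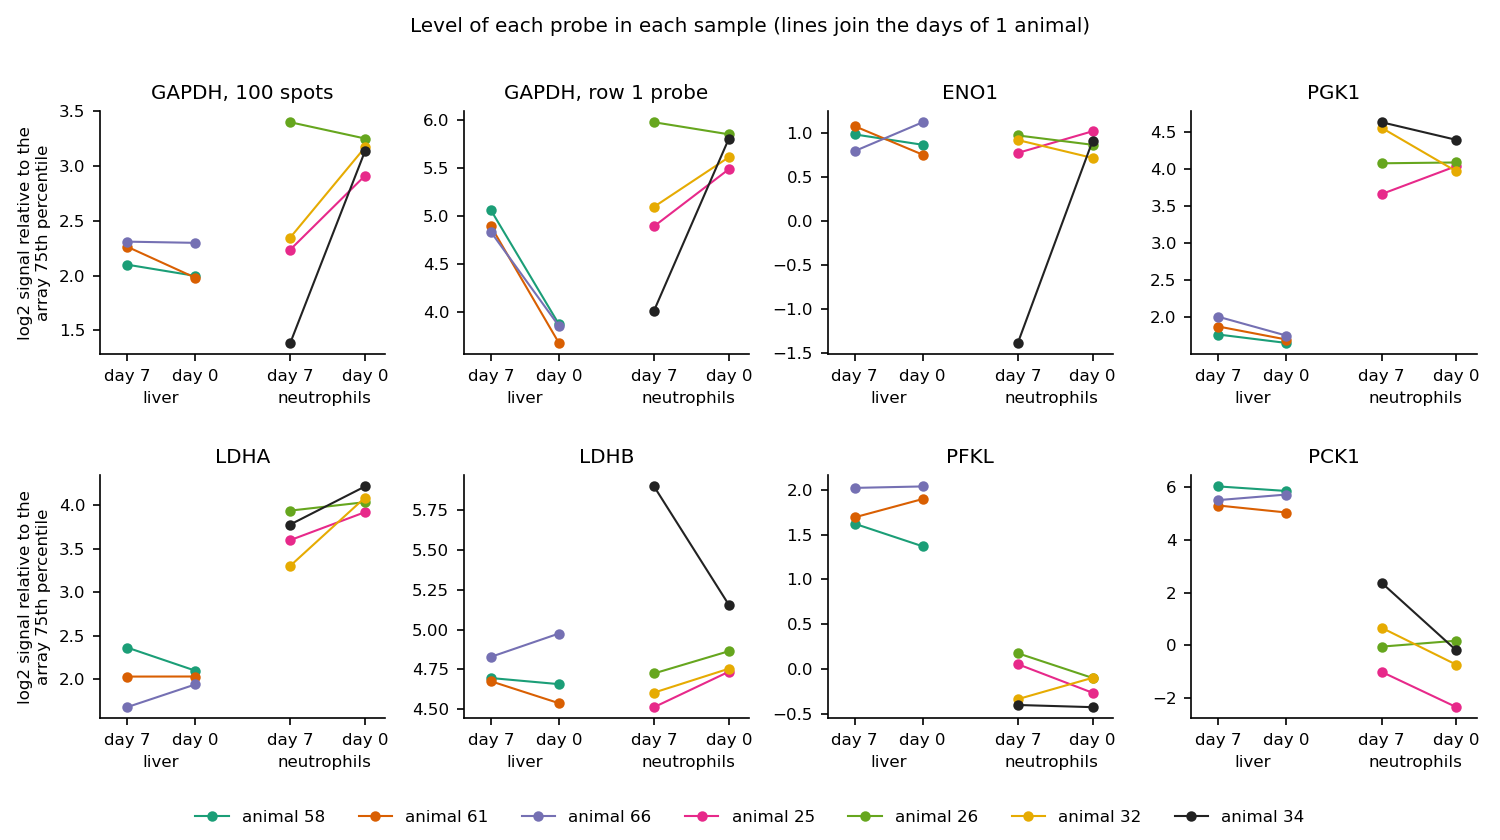
Log2 signal relative to the array's 75th percentile for each member probe (1 panel each, with its own vertical scale), day 7 left of day 0 in liver and in neutrophils; each line joins the samples of 1 animal. In liver only the row 1 GAPDH probe is widely separated by day, and in neutrophils the day 7 sample of animal 34 is lowest for GAPDH and ENO1 and highest for LDHB and PCK1.

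The repeats of the 100-spot sequence show how far its own change depended on place. In its spot in row 1 the mean change over the 3 livers was 2.95 (2.53 to 3.34), well above the 1.13 of the other GAPDH sequence in the same row. Over its 10 spots in rows 1 to 16 the change was 1.12 ± 0.12 (SD over the 3 animals), close to that 1.13, over the 57 spots in the middle rows it was 0.05 ± 0.14, and over 9 spots in the last 16 rows it was -0.57 ± 0.20. The change of 1 sequence between the same samples was thus well above 0, near 0 or below 0 depending on the row.

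The same held in each animal. Over the 23 spots in the first 40 rows the changes were 0.65, 0.84 and 0.57 in animals 58, 61 and 66, and over the 20 spots in the last 40 rows they were -0.23, -0.12 and -0.44. Relative to the spots in the middle rows of the same array, the first 16 rows were lower by 0.03 to 0.37 on the day 7 liver arrays and by 1.13 to 1.45 on the day 0 liver arrays. The last 16 rows were lower by 0.64 to 0.75 on day 7 and by 0.02 to 0.13 on day 0. The day 0 liver arrays were therefore dim along the first rows and the day 7 liver arrays along the last. The spread among the 100 spots was 0.32 to 0.44 (SD, log2) on day 7 and 0.47 to 0.67 on day 0 in liver.

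**Figure D3:**
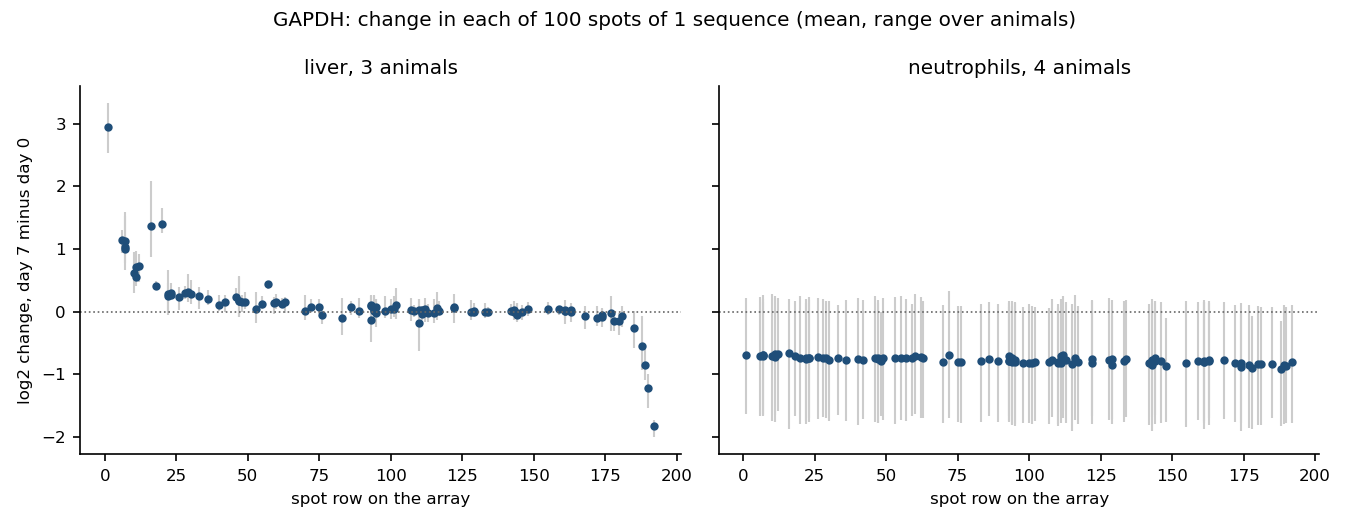
Log2 change from day 0 to day 7 in each of the 100 spots of 1 GAPDH sequence against the row of the spot on the array; points are means over animals and grey lines span the animals. In liver the change runs from 2.95 in row 1 through about 0 in the middle to below 0 in the last rows, and in neutrophils it is level near -0.78.

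Other probes near row 1 moved the same way. The 445 tested probes within 8 rows of the row 1 GAPDH probe had a median liver change of 0.82, and the 5 spots of the 100-spot sequence there had a mean of 1.45, so the probe's 1.13 lay between them. With a smooth trend along the rows (loess, taken from the row medians of all well-measured probes) removed from each array, the row 1 probe had -0.13 (adjusted p = 0.648). The 100-spot sequence then had 0.41 over the first 16 rows, 0.09 over the middle rows, -0.09 over the last 16 rows and 0.12 over all its spots. For the remaining members the neighbours' medians lay between -0.09 and 0.05, and none of them differed from its neighbours by more than 0.25 in liver. The probe under older symbols in row 124 had -1.80 to -1.35 on day 7 and -2.14 to -1.65 on day 0 in liver, a change of 0.32 ± 0.10 that did not pass (adjusted p = 0.186).

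Of the 40 further pathway genes tested in liver, 1 rose and 1 fell, where 2.67% of all probes rose and 1.31% fell. The count is near that of all probes. ENO3 had -0.27, -0.88 and -1.02 on day 7 and -1.26, -1.66 and -1.86 on day 0 (0.87 ± 0.10, adjusted p = 0.0268). LDHAL6B, a lactate dehydrogenase-like gene expressed mainly in testis in humans, had -6.88, -6.27 and -6.85 on day 7 and -5.23, -5.33 and -5.82 on day 0 (-1.21 ± 0.17, adjusted p = 0.0410). LDHAL6B was well above background in 1 of 3 samples on day 7 and 3 of 3 on day 0, so its lower values lie at the limit of detection. It was tested through day 0 alone, so its direction followed from the filter. With the row trend removed ENO3 had 0.70 and LDHAL6B -1.12, and neither passed (adjusted p = 0.126 for both).

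PGAM2 had -3.33, -3.58 and -5.15 on day 7 and -6.41, -6.79 and -6.21 on day 0 (2.45 ± 0.47), and did not pass (adjusted p = 0.0751). It cleared background in 3 of 3 livers on day 7 and 2 of 3 on day 0, so its day 0 values lie at the limit of detection. ENO3 and PGAM2 are also on the list of skeletal muscle markers, of which 15 of 18 were on the array. In liver 11 of 14 of these tested rose, ENO3 among the 11, against 2.67% of all probes, with a median of 4.94. Their summed level was 5.37 to 20.4 times the 75th-percentile signal on day 7 against 0.462 to 0.666 times on day 0. No day 0 liver array had TNNC2, MYL1, CKM, MB, MYH1 or TNNT1 well above background. TNNC2, MYL1, CKM, MB and MYH1 were therefore tested through day 7 alone, so their direction followed from the filter. The same holds for ACTA1 and PGAM2, well above background in 2 of 3 livers on day 0, and for TNNC1 and TNNT3, in 1 of 3. The count of those that rose was thus in large part set by the filter. The median includes such day 0 values at the limit of detection. The part of these muscle transcripts in the changes of ENO3 and PGAM2 was not tested. Hepatocyte markers had a summed level of 703 to 894 times on day 7 and 592 to 770 times on day 0. That of the neutrophil markers in liver was lower on every day 7 array (2.87 to 3.44) than on any day 0 array (4.19 to 10.7), with 6 of the 7 well above background on all of them, and its part in the liver changes was not tested.

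None of the 10 further gluconeogenic genes passed in liver by limma (2 at an unadjusted p under 0.05), and their median change was 0.17. SLC37A4 had 0.62 ± 0.17 (adjusted p = 0.153) and GOT1 0.37 ± 0.11 (adjusted p = 0.194), in spot rows 17 and 20. PFKFB1, in row 7, had 0.39 ± 0.13 (adjusted p = 0.233), SLC2A1, the basal glucose carrier, in row 27, 0.38 ± 0.14 (adjusted p = 0.278), and SLC16A7, in row 28, 0.38 ± 0.14 (adjusted p = 0.278). These 5 genes lay in the first 40 rows, where the 100-spot GAPDH sequence was higher on day 7 too. ENO3, in row 21, also lay there, and so did CRTC2, in row 35, which had -0.07 ± 0.11 (adjusted p = 0.789). PGAM2, which had 2.45, lay in row 179, within the last 40 rows, where that sequence was lower on day 7. The part of position in the changes of these 5 genes was not tested. CEBPB, in row 69, had 0.37 ± 0.10 (adjusted p = 0.156) and HNF4A, in row 163, 0.11 ± 0.12 (adjusted p = 0.692). HK1, in row 132, had -0.30 ± 0.16 (adjusted p = 0.435) and PFKFB2, in row 145, -0.31 ± 0.12 (adjusted p = 0.290).

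The third comparison asked the same of neutrophils. No member passed (1 of 8 probes, PCK1, at an unadjusted p under 0.05), and neither did any of the 9449 probes tested (0%; limma, 1267 at an unadjusted p under 0.05, and 24 at an adjusted p under 0.05 in 1 fit over all arrays). The largest differences among the members were a higher PCK1 and a lower GAPDH on day 7, and these were uneven between animals. The median change was 0.06 over the members and -0.07 over all probes.

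GAPDH, by the 100-spot sequence, had 2.24, 3.4, 2.35 and 1.39 on day 7 in animals 25, 26, 32 and 34, against 2.91, 3.25, 3.17 and 3.14 on day 0. It was lower on day 7 in 3 animals and higher by 0.15 in animal 26, with a mean change of -0.78 ± 0.34 (SE, unadjusted p = 0.0571, adjusted p = 0.379). The row 1 probe gave nearly the same changes, -0.59, 0.13, -0.52 and -1.79 by animal (mean -0.69 ± 0.35, adjusted p = 0.415).

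Position mattered little in neutrophils. The change of the 100-spot sequence was -0.70 over the first 16 rows, -0.78 over the middle rows and -0.86 over the last 16 rows. The spread among its spots was 0.14 to 0.17 (SD, log2) on day 7 and 0.16 to 0.17 on day 0. The spread between the 4 animals was 0.83 (SD, log2) on day 7 and 0.14 on day 0, so it exceeded the spread among spots on day 7 and not on day 0. Without animal 34 the change was -0.45 (adjusted p = 0.536).

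PCK1 had -1.0, -0.04, 0.67 and 2.38 on day 7 and -2.34, 0.18, -0.73 and -0.19 on day 0, a change of 1.27 ± 0.44 (unadjusted p = 0.0227, adjusted p = 0.330). It was higher on day 7 in animals 25, 32 and 34 by 1.34, 1.40 and 2.57 and lower in animal 26 by 0.22, so animal 26 was the 1 animal of opposite sign, as for GAPDH. Without animal 34 the PCK1 change was 0.84 (adjusted p = 0.366).

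LDHA had 3.60, 3.94, 3.30 and 3.78 on day 7 and 3.92, 4.03, 4.09 and 4.21 on day 0. It was lower on day 7 in 4 of 4 animals, as 24.5% of all probes were of 1 sign in every animal, and its change of -0.41 ± 0.25 did not pass (adjusted p = 0.464). ENO1 had 0.78, 0.98, 0.92 and -1.39 on day 7 and 1.02, 0.87, 0.72 and 0.91 on day 0. Its mean change of -0.56 ± 0.45 (adjusted p = 0.571) rested on animal 34, without which it was 0.02.

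PGK1 had 3.66, 4.08, 4.56 and 4.63 on day 7 and 4.04, 4.09, 3.97 and 4.40 on day 0 (0.11, interval -0.51 to 0.73, adjusted p = 0.862). PFKL had 0.05, 0.18, -0.34 and -0.40 on day 7 and -0.26, -0.10, -0.10 and -0.42 on day 0 (0.10, interval -0.48 to 0.67, adjusted p = 0.870). LDHB had 4.51, 4.72, 4.60 and 5.90 on day 7 and 4.74, 4.86, 4.75 and 5.16 on day 0 (0.06, interval -0.59 to 0.70, adjusted p = 0.930). In LDHB the other 3 animals were lower on day 7 by 0.14 to 0.22, and animal 34 was higher by 0.74. The day groups overlapped for all 8 member probes in neutrophils, against 9.38% of all probes whose groups did not.

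**Figure D4:**
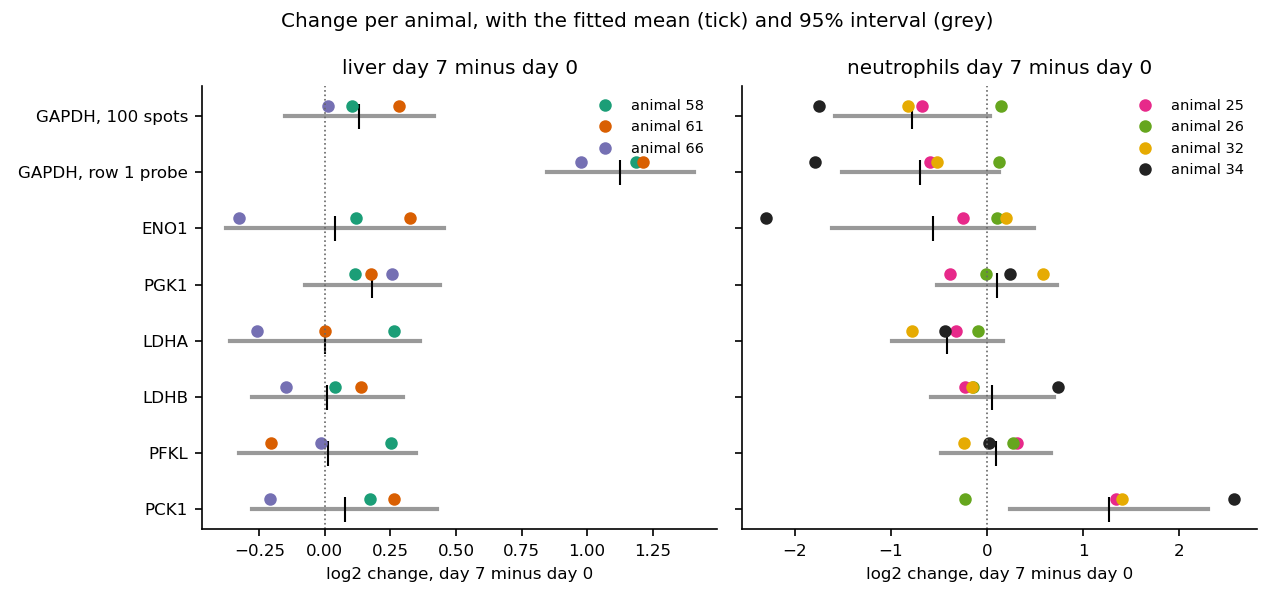
Log2 change from day 0 to day 7 for each member probe in liver (left) and in neutrophils (right, with a wider scale): coloured points are animals, the tick is the fitted mean and the grey bar its 95% interval. In liver only the row 1 GAPDH probe lies away from 0. In neutrophils animal 34 lies far from the others for ENO1 and LDHB, and it has the highest change for PCK1 and the lowest for GAPDH.

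Beside these values stand other measures that differed in the neutrophil samples. The summed level of the 5 T cell markers was 5.39 to 6.88 times the 75th-percentile signal on day 7 and 2.28 to 4.02 times on day 0, with all 5 well above background on every neutrophil array, and none of the 5 passed. That of the neutrophil markers on day 7 was 1369 in animal 34 and 1368 in animal 32, the highest of the neutrophil arrays, against 650 in animal 25 and 896 in animal 26. The summed level of the 4 cholangiocyte markers was 1.31 to 9.07 on day 7, highest in animal 34, and 1.12 to 3.52 on day 0. It was set mostly by KRT19, the only 1 of them well above background on every neutrophil array. On day 7 KRT7 and SOX9 cleared background on no neutrophil array and EPCAM on 1 of 4. Mean KRT19 was 1.87 on day 7 and 1.11 on day 0 in neutrophils, against 0.47 and 0.56 in liver. The sum is thus no measure of cholangiocytes in these samples. Monocyte and macrophage markers (2 of 6 on the array) had 14 to 24.8 on day 7, against 17.0 to 26.0 on day 0. The part of other cells, or of the weaker array of animal 34, in the member changes was not tested.

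Of the 31 further pathway genes tested in neutrophils, 0 passed by limma (3 at an unadjusted p under 0.05). Of the 8 other glycolytic enzymes tested, 1 had a positive change, where 5255 of all 9449 probes had a negative one. Among the negative changes, those of ENO3 (-0.002), TPI1 (-0.02) and PGAM2 (-0.08) lay near 0. GPI had -1.32, -0.43, -0.72 and -3.18 on day 7 and -0.22, 0.06, 0.71 and -0.06 on day 0, lower on day 7 in 4 of 4 animals with groups that did not overlap (-1.53 ± 0.43, unadjusted p = 0.00919, adjusted p = 0.313). PGAM1 had 2.77, 3.24, 2.81 and -0.14 on day 7 and 3.49, 3.52, 3.02 and 3.32 on day 0 (-1.17 ± 0.55, adjusted p = 0.398). GPI and PGAM1 were both lowest in animal 34. Among all probes tested in neutrophils, 24.5% were of 1 sign in every animal, and the day groups of 9.38% did not overlap.

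SLC2A3, the main glucose carrier of neutrophils, had 0.07, 1.12, 2.87 and -2.65 on day 7 and 1.85, 1.57, 1.55 and 1.51 on day 0, so that closely grouped day 0 values were followed by a wide spread (-1.27 ± 0.79, adjusted p = 0.476). MDH1 was higher on day 7 in 4 of 4 animals, with -0.43, -0.28, -0.83 and -0.02 on day 7 and -1.25, -2.19, -1.42 and -0.79 on day 0 (1.02 ± 0.30, unadjusted p = 0.0115, adjusted p = 0.313). A shared sign in every animal was found for 24.5% of all probes. PFKFB3 had 0.86 ± 0.33 (adjusted p = 0.342), PFKFB2 -0.49 ± 0.30 (adjusted p = 0.468), SLC16A1 0.62 ± 0.32 (adjusted p = 0.426), PDK2 0.38 ± 0.26 (adjusted p = 0.506) and FBP2 -0.57 ± 0.55 (adjusted p = 0.635). HK1 had -0.32 ± 0.35 (adjusted p = 0.673), CEBPB -1.28 ± 0.71 (adjusted p = 0.443) and NR3C1 -0.98 ± 0.44 (adjusted p = 0.381).

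**Figure D5:**
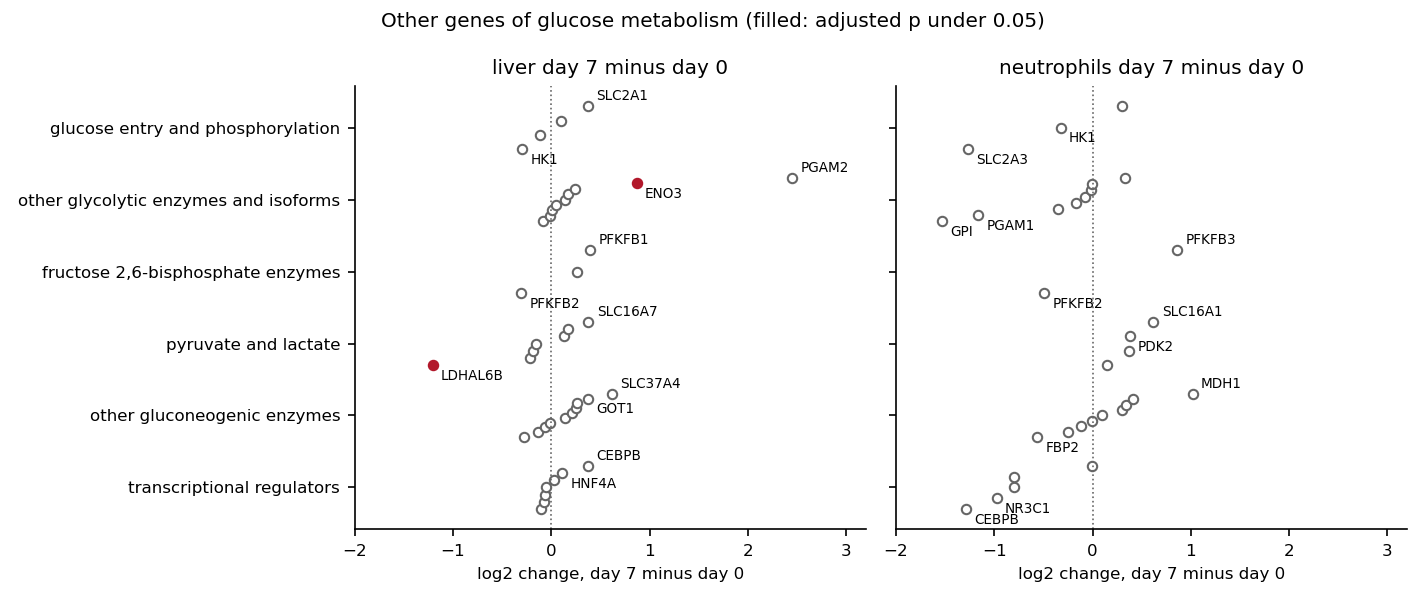
Log2 change from day 0 to day 7 of the other genes of glucose metabolism, by group, in liver (left) and neutrophils (right), 1 point per gene tested, filled where the adjusted p was under 0.05; the names are those of the largest changes in each group. In liver ENO3 (0.87) and LDHAL6B (-1.21) are filled, and in neutrophils no gene is.

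The last comparison asked whether the change over the 7 days differed between the tissues, by the interaction of tissue and day over all 14 arrays. It passed for 0 of 7 members by limma (smallest unadjusted p = 0.00244, for the row 1 GAPDH probe) and for 1.14% of 8841 probes. For the row 1 GAPDH probe the difference was 1.82 ± 0.43 (SE, liver change minus neutrophil change, adjusted p = 0.0976), and without animal 34 it was 1.45 and passed (adjusted p = 0.0316). With the row trend removed from each array it was 0.59 (adjusted p = 0.641). For the 100-spot sequence, the liver change of 0.13 and the neutrophil change of -0.78 differed by 0.91 ± 0.42 (interval -0.06 to 1.87, adjusted p = 0.403). PCK1, with changes of 0.08 in liver and 1.27 in neutrophils, differed by -1.20 ± 0.57 (interval -2.50 to 0.11, adjusted p = 0.419). For ENO1 the difference was 0.60 ± 0.59 and for LDHA 0.41 ± 0.28, and for PGK1, PFKL and LDHB it lay between -0.08 and 0.07. Of 30 further pathway genes tested, 0 passed by limma (4 at an unadjusted p under 0.05). GPI differed by 1.78 ± 0.56 (adjusted p = 0.198) and PGAM2 by 2.53 ± 0.55 (adjusted p = 0.0761).

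GAPDH, by the 100-spot sequence, was also set beside every other named gene tested in both tissues (3799 genes), by Pearson's correlation over the 14 arrays after each gene was centred within its tissue. The closest were RABAC1 (r = 0.957), TOM1 (0.935), FKBP1B (0.934), FHL3 (0.926) and STX5 (0.925). Within neutrophils their correlations were 0.935 to 0.963, and within liver they ran from -0.01 for FHL3 to 0.96 for TOM1. The arrays share animals, slides and the scaling to 1 percentile, and the day 7 array of animal 34 weighs on each value, so these figures are a description of 14 arrays.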

How the data were processed

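The spot intensity used was the processed signal deposited by the authors, made with Agilent Feature Extraction (9.5.1.1 per the file headers, 9.5 per the submitters' processing notes), which, per the file headers, subtracted the local background, removed a spatial trend per array and set surrogates for low values. The mean and background intensity columns of the same deposited files served 1 alternative. The authors' deposited log2 values equal log2 of the same signal minus a constant per array, 0.007 to 0.013 from the 75th percentile (column medians -3.55 to -2.69).

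From there, the log2 signal, less the 75th percentile of its array, was averaged over the spots of 1 sequence. Spots flagged as outliers by the software, another deposited column of flag scores per the file headers, and control spots were left out. Probes that cleared background throughout 1 or more of the groups compared were tested with limma 3.58.1 (R 4.3.3), with the animal as a block between days, by two-sided p-values adjusted over all probes (Benjamini-Hochberg, 0.05). Same-numbered samples are the same animal per the labels, and their deviations correlated at 0.646, 0.315 and 0.607 in liver and 0.612, 0.357, 0.0298 and 0.240 in neutrophils. A gene with several probes was counted by its brightest in the tissue. Genes were named through the NCBI RefSeq gene table for 6015 of 15011 probes. Named genes were all members, the pathway genes that passed, up to 2 with the largest change per group, and the 5 most like GAPDH. The code was tested on simulated data.

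The members, the lists and the rules were chosen with earlier results of these data known. Settings tried are given in the closing section. The number of arrays limits the precision.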

Additional observations from a re-analysis of the deposited data

Results flagged for a closer look

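In groups of 4 samples, the highest or lowest value was compared with its neighbours by Dixon's criterion. Of 24 such groups of member levels and changes in neutrophils, 3 held a value that far from the others, where chance gives about 1 in 20. All came from the day 7 neutrophils of animal 34, the array with the lowest median signal. ENO1 was at -1.39 there, against 0.78 to 0.98 in the other animals on day 7. LDHB was at 5.90, against 4.51 to 4.72 in the others. The LDHB change of this animal was 0.74, against -0.22 to -0.14 in the others. The part of the weaker array in these values was not tested. Groups of 3, as in liver, are too small for the criterion.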

How the results depend on the processing

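The count of members that passed in liver, 1 of 7, became 0 with GAPDH taken by its 100 spots (a setting chosen after the data were seen), with no filter on dim probes, with the row trend removed, in the middle rows alone (6 genes), with the mean over all 3 probes named GAPDH and in 1 fit over all arrays, and was 0 to 0 with each animal left out. It stayed 1 with normexp, quantile normalization, the authors' values, the stricter filter and an adjusted p of 0.1. Without the animal as a block 1 member passed in liver and 0 in neutrophils, with 0 for the tissue difference, so the block changed no call of a member. Over all probes, 435 liver calls became 210 without the block, 25 with the row trend removed, 177 in 1 fit, 0 without filter, 0 in the middle rows, and 0, 116 and 159 without animals 58, 61 and 66. The count for the difference between tissues, 0, was 1 at an adjusted p of 0.1 and 0 to 1 with an animal left out. The 0 in neutrophils was the same under every setting tried, and the 5 between liver and neutrophils on day 0 under all but the row trend removed (4) and the middle rows alone (4 of 6 genes). By spot row, the GAPDH change in liver was 0.69 in the first 40 rows and -0.26 in the last 40, against 0.13 over all spots.

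Signs turned mostly for changes near 0. With normexp and with quantile normalization the liver changes were -0.011 and -0.0027 for ENO1, -0.069 and -0.071 for LDHA, -0.15 and -0.15 for LDHB, -0.046 and -0.047 for PFKL and -0.098 and -0.099 for PCK1, and LDHB between tissues was 0.28 and 0.28. With the row trend removed, the row 1 GAPDH probe (-0.13) and LDHA (-0.049) turned in liver, and LDHB (0.054) and PFKL (0.014) in the difference between tissues. With an animal left out, liver changes ran from -0.11 to 0.22 for ENO1, -0.13 to 0.13 for LDHA, -0.054 to 0.088 for LDHB, -0.11 to 0.12 for PFKL and -0.019 to 0.22 for PCK1. Neutrophil changes ran from -0.81 to 0.021 for ENO1, -0.050 to 0.27 for PGK1 and -0.17 to 0.15 for LDHB. The differences between tissues in the change ran from -0.091 to 0.23 for PGK1, -0.14 to 0.18 for LDHB and -0.21 to 0.023 for PFKL, and that of ENO1 between liver and neutrophils on day 0 from -0.069 to 0.12. The causes were not tested.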
